A study of Mus musculus with 2 samples.

Results

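The 8 genes described here encode parts of the signalling machinery of pericytes, the contractile cells that wrap capillaries, and of their contact with the endothelium. They were chosen by name and are Kcnj8 (ENSMUSG00000030247) and Abcc9 (ENSMUSG00000030249), the pore and regulatory subunits of the vascular ATP-sensitive potassium (KATP) channel; Rgs5 (ENSMUSG00000026678) and Rgs4 (ENSMUSG00000038530), which switch off G proteins; Gucy1a1 (ENSMUSG00000033910) and Gucy1b1 (ENSMUSG00000028005), the subunits of the nitric oxide receptor; and the growth factor receptor gene Pdgfrb with its ligand gene Pdgfb (ENSMUSG00000000489). All 8 of the 32285 genes listed had unique molecular identifiers (UMIs, counted RNA molecules) in both libraries. The data were 2 single-cell RNA-seq libraries of live mononuclear cells from limb muscle of aged C57BL/6 mice, 1 from mice injected intraperitoneally with the drug Maraviroc (MVC) and 1 from control mice that received DMSO, its vehicle. The sources used here do not say how many mice each library pooled. Intact muscle fibres are largely lost in such preparations.

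The question was in which cells these genes were read and whether their levels differed between MVC and DMSO. The DMSO library held 5437 kept cells (median 5802 UMIs) and the MVC library 5454 (median 5195 UMIs), and 8 barcodes of kept cells occurred in both. With 1 library per group no test was possible, so every MVC vs. DMSO difference below describes these 2 libraries, and the 95% intervals cover counting error only. Cells were grouped without the 8 genes, and a group was called "X-like" from other markers. Pericyte-like cells formed 1 cluster of 294 DMSO and 284 MVC cells, in which all 9 pericyte markers (such as Vtn, Higd1b and Cox4i2) were detected in both libraries, summing to 3630 and 3189 CPM (a gene's UMIs divided by all UMIs of the class and library, times 1000000). Detection alone does not set the class apart, as all 9 were also detected in endothelial-like cells, at sums of 43.4 and 73.2 CPM. Vascular smooth muscle cells (SMC-like) numbered 65 and 48, and a further cluster that carried markers of both, called SMC/pericyte-like, 116 and 78. Pericyte markers summed to 1567 and 1375 CPM in SMC-like and 1683 and 1920 CPM in SMC/pericyte-like cells. The latter also held markers of fibro-adipogenic progenitors (FAP), at 1788 and 1722 CPM, against 1097 and 514 CPM in pericyte-like cells.

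In background terms, a KATP channel opens when cellular ATP is low, hyperpolarises the mural cell and relaxes the vessel. Nitric oxide from the endothelium acts on soluble guanylyl cyclase in the same cells, and the cGMP formed also favours relaxation, while RGS proteins shorten the contractile signals of Gq- and Gi-coupled receptors. Endothelial PDGF-BB, encoded by Pdgfb, acts on PDGF receptor beta to recruit and keep pericytes on the capillary.

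The genes of each pair below lie side by side in the genome (GRCm38, GENCODE M21 annotation). Kcnj8 (chromosome 6, 142564837 to 142571614, minus strand) and Abcc9 (142587862 to 142702315, minus strand) were 16.2 kb apart with no gene between them. Gucy1b1 (chromosome 3, 82032006 to 82074689, minus strand) and Gucy1a1 (82092427 to 82145789, minus strand) were 17.7 kb apart. Rgs5 (chromosome 1, 169655501 to 169695813, plus strand) and Rgs4 (169741477 to 169747642, minus strand) faced each other 45.7 kb apart. Pdgfb lies on chromosome 15 (79995874 to 80014977, minus strand). Gene annotations on the other strand overlapped Abcc9 (1) and Pdgfb (1).

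The sequences just upstream of the start of Kcnj8, Abcc9, Rgs5 and Rgs4 are shown because these are 2 pairs of adjacent genes, and the members of the first were closer to each other in their pattern across cell classes (r = 0.956) than those of the second (r = 0.766). They are RefSeq promoters of GRCm38.p6, 5′ to 3′ on the strand of the gene, cut where the GENCODE gene begins. Capitals mark the motifs searched, and 6 of the 8 genes were matched.
Kcnj8, chr6:142571615-142571864, minus strand.
Kcnj8: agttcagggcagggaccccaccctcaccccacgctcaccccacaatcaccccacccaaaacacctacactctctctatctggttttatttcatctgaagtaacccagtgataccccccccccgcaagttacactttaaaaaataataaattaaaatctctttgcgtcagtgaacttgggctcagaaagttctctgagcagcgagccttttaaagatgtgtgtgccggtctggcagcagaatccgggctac
Abcc9, chr6:142702316-142702524, minus strand.
Abcc9: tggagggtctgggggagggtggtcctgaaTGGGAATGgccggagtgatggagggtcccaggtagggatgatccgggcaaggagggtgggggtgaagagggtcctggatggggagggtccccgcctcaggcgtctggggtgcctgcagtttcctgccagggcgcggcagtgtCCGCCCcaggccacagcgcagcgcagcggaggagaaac
Rgs5, chr1:169655251-169655500, plus strand.
Rgs5: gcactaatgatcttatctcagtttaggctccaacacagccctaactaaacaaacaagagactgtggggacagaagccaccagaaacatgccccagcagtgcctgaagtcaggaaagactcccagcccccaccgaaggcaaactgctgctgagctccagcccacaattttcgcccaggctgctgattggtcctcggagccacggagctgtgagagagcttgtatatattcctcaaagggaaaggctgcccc
Rgs4, chr1:169747643-169747892, minus strand.
Rgs4: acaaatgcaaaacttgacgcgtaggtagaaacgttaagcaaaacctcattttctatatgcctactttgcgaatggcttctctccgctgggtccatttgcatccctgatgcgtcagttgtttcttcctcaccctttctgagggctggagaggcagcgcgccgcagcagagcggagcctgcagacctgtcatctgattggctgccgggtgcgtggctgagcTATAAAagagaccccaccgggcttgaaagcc

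The motifs were searched on both strands in 250 bases upstream of each RefSeq start. TGGGAA, the core bound by the Notch effector RBPJ, occurred in the Abcc9 window, where it overlaps a match to the TEAD core GGAATG, and in that of Gucy1b1. The second RefSeq start of Gucy1a1 held 3 matches to TGGGAA. Of 32851 promoter windows, 21.6% held TGGGAA and 12.6% held GGAATG. The SP1 core GGGCGG, present in 32.7% of windows, was found for Abcc9 (as CCGCCC on the strand printed), Gucy1b1 and the other start of Gucy1a1. Rgs4 held TATAAA, which 12.4% of windows had, starting 31 bases before its start site. No window of these genes held a CArG box (1.47% of windows), and the windows of Kcnj8 and Rgs5 held none of the motifs. A match is a string of letters, not a shown binding site.

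The KATP channel genes were read mostly in pericytes. Kcnj8 was at 760 CPM (95% interval 717 to 805) in DMSO and 557 CPM (515 to 601) in MVC pericyte-like cells, and 86.6% and 80.1% of its UMIs in the libraries came from this class, which held 5.41% and 5.21% of cells. Abcc9 stood at 2345 CPM (2269 to 2422) and 1889 CPM (1811 to 1969), with 85.4% and 80.2% of its UMIs there. For both genes the SMC/pericyte-like cells came next, with Kcnj8 at 114 and 132 CPM and Abcc9 at 459 and 395 CPM. Their intervals lay apart from those of the pericyte-like cells in both libraries. EC-like cells had 1.94 and 4.57 CPM of Kcnj8 and 10.2 and 14.6 CPM of Abcc9. A shallow cluster of 153 cells that stayed unnamed had Abcc9 at 93.4 and 153 CPM, from 13 and 11 UMIs, and Kcnj8 at 35.9 and 27.9 CPM, from 5 and 2 UMIs. The few myofibre-like cells had Abcc9 at 7.37 CPM in DMSO and 98.4 CPM in MVC, the latter with all its UMIs in 2 cells.

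SMC-like cells held almost none of either gene. Kcnj8 had 7 UMIs in DMSO and 2 in MVC SMC-like cells, and Abcc9 17 and 1, of which 3 DMSO cells held 64.7%. Pericyte-like over SMC-like CPM ratios were thus 68.7 (33.2 to 171) and 142 (39.1 to 1173) for Kcnj8 and 87.2 (54.4 to 150) in DMSO for Abcc9, the MVC value of which rests on 1 SMC-like UMI. The paralogs that form the other KATP channel showed the opposite placement at a low level. Abcc8, the sulfonylurea receptor known from pancreatic beta cells, had 29 and 17 UMIs in SMC-like cells (45.9 and 33.4 CPM), its highest class in both libraries, but 2 and 2 in pericyte-like cells. Kcnj11, its pore partner, had 6 and 4 UMIs in SMC-like cells and 0 in pericyte-like cells of either library, which allows up to 1.95 and 2.55 CPM.

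Within pericyte-like cells the channel subunits were read together. After each cell was thinned to 2000 UMIs, which left out 27 DMSO and 99 MVC cells, Abcc9 had a UMI in 95.1% (91.8 to 97.4) of DMSO and 93.0% (88.3 to 96.2) of MVC cells, and Kcnj8 in 67.4% (61.4 to 73.0) and 54.6% (47.1 to 61.9). Before thinning, when the median depths were 4172 and 2865 UMIs, the Kcnj8 shares were 82.0% and 60.6%. Abcc9 was found in 179 of 180 DMSO cells with a Kcnj8 UMI and in 86.2% of those without. In MVC it was found in 96 of 101 cells with a Kcnj8 UMI and in 90.5% of those without. T/NK-like cells, which should lack the channel, had Kcnj8 in 1.04% and 0% of cells at the same depth (up to 6.27% for 57 MVC cells by the exact interval).

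**Figure D1:**
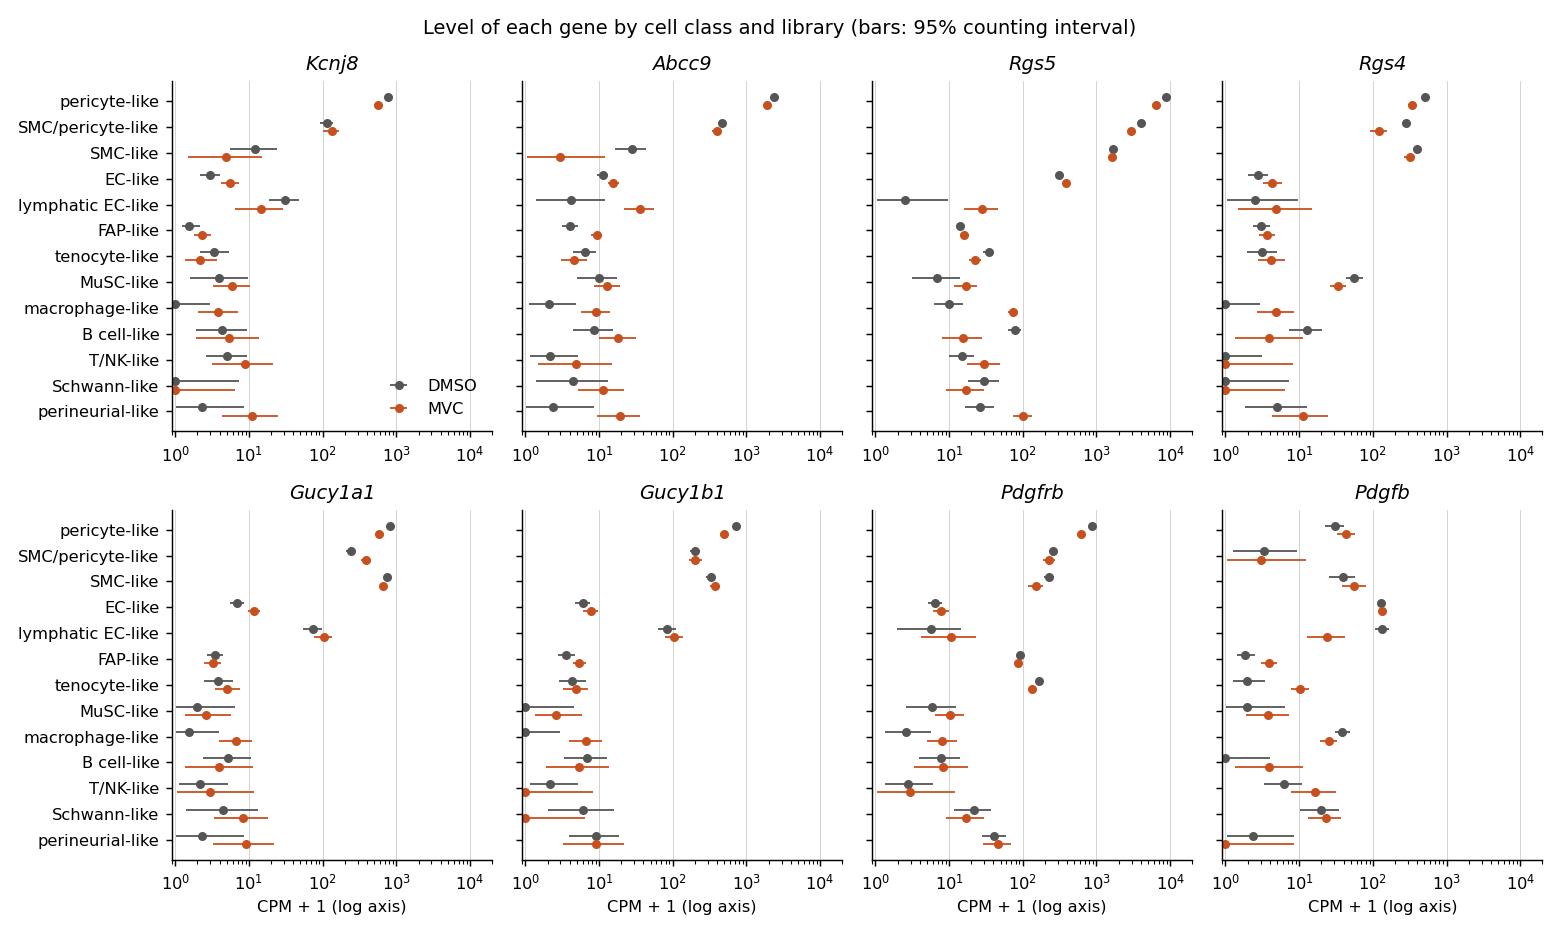
Level of each gene (CPM + 1, log axis) in 13 cell classes of the DMSO (grey) and MVC (orange) library, with 95% counting intervals as bars. Of the classes shown, pericyte-like cells were the highest in both libraries for all genes but Gucy1a1, for which SMC-like cells were higher in MVC (662 vs. 575 CPM), and Pdgfb, which was at 127 and 131 CPM in EC-like cells.

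The RGS genes were broader, each in its own way. Rgs5, a much used pericyte marker that turns off Gq and Gi signals, was at 8752 CPM (8605 to 8901) and 6477 CPM (6333 to 6624) in pericyte-like cells, 4016 and 2939 CPM in SMC/pericyte-like cells and 1652 and 1629 CPM in SMC-like cells, so that the intervals of these 3 classes lay apart in both libraries. At 2000 UMIs per cell, 99.6% of DMSO and 100% of MVC pericyte-like cells had an Rgs5 UMI, against 47.7% (35.1 to 60.5) and 66.0% (50.7 to 79.1) of SMC-like cells. In the SMC-like class 3 cells held 24.9% and 32.8% of the Rgs5 UMIs, while the 3 deepest held 9.32% and 14.7% of all UMIs.

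Endothelial-like (EC-like) cells also held Rgs5, at 308 CPM (297 to 319) in DMSO and 383 CPM (370 to 397) in MVC. It was found in 15.6% (14 to 17.3) and 21.3% (19.3 to 23.5) of them at 2000 UMIs, against 1.55% and 3.51% of T/NK-like cells. Without thinning the EC-like shares were 19.9% and 22.6% at median depths of 3826 and 3276.5 UMIs, and those of T/NK-like cells 2.56% and 11.3% at 7960 and 6666 UMIs. For each Abcc9 UMI there were 30.2 and 26.3 Rgs5 UMIs in EC-like cells, against 3.73 and 3.43 in pericyte-like cells. The value was 8.75 and 7.45 in SMC/pericyte-like and 61.5 and 829 in SMC-like cells, the last from 1 Abcc9 UMI. The source of the Rgs5 UMIs in EC-like cells was not tested. The unnamed cluster, with a median of 1240 UMIs and led by Gpihbp1, Timp4 and C1qtnf9, had Rgs5 at 3196 and 2230 CPM and 34.2 and 14.5 Rgs5 UMIs per Abcc9 UMI.

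Rgs4, a regulator of the same family, separated pericytes from smooth muscle little. It was at 513 CPM (477 to 550) and 334 CPM (302 to 369) in pericyte-like cells, 395 CPM (348 to 447) and 314 CPM (268 to 367) in SMC-like cells, and 280 and 119 CPM in SMC/pericyte-like cells. The ratio of pericyte-like over SMC-like CPM was 1.30 (1.12 to 1.5) in DMSO and 1.06 (0.883 to 1.29) in MVC, where the values were within counting error of each other. At 2000 UMIs, 55.8% and 38.4% of pericyte-like cells had an Rgs4 UMI, and 46.2% and 46.8% of SMC-like cells. EC-like cells had 1.75 and 3.33 CPM of Rgs4, and its pericyte-like over EC-like ratios were 293 and 100.4, against 28.4 and 16.9 for Rgs5. Muscle stem cells (MuSC-like), however, held 55.1 and 32.8 CPM of Rgs4, from 19 and 30 cells, with 58.9% of the DMSO UMIs in 3 of them. Other members of the same RGS family had other leading classes. Rgs16 was highest in SMC/pericyte-like cells of both libraries (768 and 549 CPM) and was at 39.7 and 35.7 CPM in pericyte-like cells. Rgs2 was at 29.9 and 20.4 CPM in pericyte-like and 234 and 240 CPM in SMC/pericyte-like cells, which were its highest class in MVC, while in DMSO T/NK-like cells were higher at 358 CPM.

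The nitric oxide receptor genes were shared by pericytes and smooth muscle. Gucy1a1 was at 812 CPM (767 to 858) and 575 CPM (532 to 620) in pericyte-like and 738 CPM (673 to 809) and 662 CPM (593 to 737) in SMC-like cells. Their ratio was 1.10 (0.988 to 1.23) in DMSO, where the values were within counting error of each other, and 0.868 (0.761 to 0.992) in MVC. Gucy1b1, the subunit that holds the haem, was at 726 CPM (684 to 770) and 500 CPM (460 to 542) in pericyte-like cells against 327 and 375 CPM in SMC-like cells, a ratio of 2.22 (1.91 to 2.59) in DMSO and 1.33 (1.13 to 1.58) in MVC. At 2000 UMIs, 57.3% of DMSO and 41.1% of MVC pericyte-like cells had both subunits.

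Outside the mural classes, lymphatic EC-like cells alone had over 50 CPM of both subunits in both libraries, with Gucy1a1 at 73.0 and 102 CPM and Gucy1b1 at 83.8 and 104 CPM. Blood EC-like cells had 5.83 and 10.7 CPM of Gucy1a1 and 5.05 and 6.66 CPM of Gucy1b1. The partners of the pathway lay on either side of the vessel wall. Nos3, the endothelial nitric oxide synthase, was highest in EC-like cells (204 and 209 CPM). Prkg1, the cGMP-dependent kinase, was highest in pericyte-like cells (4022 and 4260 CPM), as was Gucy1a2, the alternative alpha subunit (730 and 827 CPM). Pde5a, which degrades cGMP, was at 124 and 123 CPM in pericyte-like and 223 and 153 CPM in SMC-like cells.

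The PDGF genes lay on either side of the endothelial contact. Pdgfrb was at 867 CPM (821 to 914) and 610 CPM (566 to 656) in pericyte-like cells, 255 and 226 CPM in SMC/pericyte-like and 226 and 149 CPM in SMC-like cells. Unlike the channel genes, it was also read in mesenchymal cells, at 166 and 134 CPM in tenocyte-like cells and 90.2 and 86.1 CPM in fibro-adipogenic progenitors (FAP-like). Pericyte-like cells gave 36.4% and 25.7% of all Pdgfrb UMIs, a smaller share than for the channel genes. FAP-like cells gave 31.2% and 41.8%, the largest share in MVC. They made up 21.4% and 26.1% of the cells and held 32.7% and 38.3% of all UMIs. The SMC-like and SMC/pericyte-like intervals overlapped in both libraries, and the SMC-like and tenocyte-like ones in MVC. EC-like cells were at 5.44 and 6.79 CPM.

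Pdgfb was an endothelial gene. EC-like cells gave 81.6% and 80.4% of its UMIs and stood at 127 CPM (120 to 134) and 131 CPM (124 to 140), with a UMI in 19.1% and 18.2% of cells at 2000 UMIs (0.518% and 1.75% of T/NK-like cells). Macrophage-like cells had 37.5 and 24.2 CPM. Pericyte-like cells had 29.3 CPM (21.4 to 39.2) and 42.4 CPM (31.5 to 56.0), held by 21 and 22 cells. Cells with UMIs of both endothelial genes Pecam1 and Cdh5 made up 16.3% and 19.4% of the pericyte-like class, and without called doublets the Pdgfb level there was 11.5 and 25.4 CPM. A lymphatic EC-like value of 134 CPM in DMSO came to 83.7% from 1 cell, and 5 cells in all held a UMI, so no level is read from it.

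The other ligands had other sources. Pdgfd, a further ligand of the beta receptor, was at 269 and 353 CPM in EC-like and 323 and 255 CPM in SMC-like cells. Pdgfa was highest in Schwann-like cells (493 and 393 CPM) and at 351 and 226 CPM in SMC-like cells, and Pdgfc was highest in macrophage-like cells (45.0 and 82.5 CPM) with 0 UMIs in pericyte-like cells. Pdgfra, the alpha receptor, was a gene of FAP-like cells (381 and 379 CPM).

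Set side by side, 4 of the 8 genes (Kcnj8, Abcc9, Rgs5 and Pdgfrb) were at least 2-fold higher in pericyte-like than in SMC-like cells in both libraries, as were 12% of the 5191 genes with enough UMIs, and 0 were 2-fold lower (5.97% of those genes). The ratio was 5.30 (4.97 to 5.65) and 3.98 (3.70 to 4.28) for Rgs5 and 3.83 (3.22 to 4.59) and 4.08 (3.22 to 5.24) for Pdgfrb. Against SMC/pericyte-like cells, 5 of the 7 genes with enough UMIs were 2-fold higher in both libraries (13.4% of 5185 genes) and 0 were lower (6.62%), the exceptions being Rgs4 (1.83 and 2.81) and Gucy1a1 (3.37 and 1.49). SMC/pericyte-like cells were in turn 2-fold above SMC-like cells for 2 of 7 genes, Kcnj8 and Abcc9 (9.9% of 3434 genes), and 2-fold below for 0 (9.7%). Against EC-like cells, 7 of 8 were 2-fold higher (13.4% of 10101 genes) and Pdgfb was lower (11.7%), at 0.231 (0.168 to 0.311) and 0.323 (0.238 to 0.429). All classes come from these same cells, so the ratios are descriptions.

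**Figure D2:**
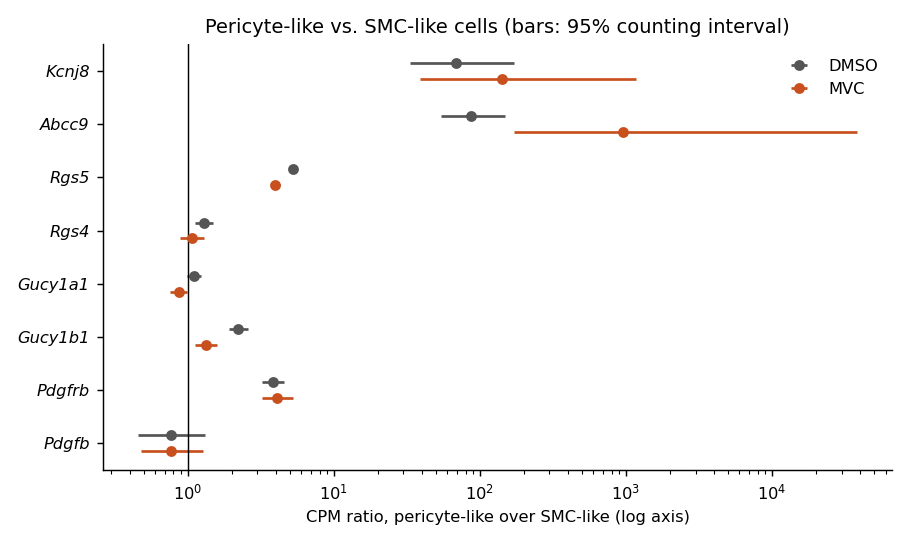
CPM ratio of pericyte-like over SMC-like cells (log axis) for each gene in the DMSO (grey) and MVC (orange) library, with 95% counting intervals as bars. Kcnj8 and Abcc9 lay beyond 68-fold in both libraries, Rgs5 and Pdgfrb between 3.83 and 5.30, and the intervals of Rgs4, Gucy1a1 and Pdgfb reached 1 in at least 1 library.

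Across 26 points (13 classes in each library) the Pearson correlation of log2(CPM + 10) described which genes had the most similar pattern among 14963 genes. The classes were those with at least 50 cells in each library, so SMC-like cells were left out and the unnamed cluster was in. The points share the same 2 libraries. Abcc9 was the closest gene to Kcnj8 (r = 0.956), followed by Mrvi1 (0.949), a cGMP kinase substrate that also came next for Abcc9 (0.95), and Higd1b (0.947), while Lmod1 was the third for Abcc9 (0.947). Gucy1b1 was the closest to Gucy1a1 (r = 0.964), and Kcnj8 came next for both (0.938 and 0.942), before the sodium channel gene Scn3a for Gucy1a1 (0.938) and Abcc9 for Gucy1b1 (0.910). Rgs5 was nearest to Myh11 (0.913), the smooth muscle myosin heavy chain, then to Abcc9 (0.901) and Neurl1b (0.892). Rgs4 was nearest to Heyl (0.954) and Notch3 (0.946), a Notch target and the mural Notch receptor, and to Mark1 (0.925). The neighbours Rgs5 and Rgs4 had r = 0.766 with each other. Pdgfrb was nearest to Gm26903 (0.962), Bmp5 (0.925) and Trabd2b (0.918), and Pdgfb to the endothelial genes Afap1l1 (0.929) and Mmrn2 (0.899) and to Tbkbp1 (0.896). Pdgfrb and Pdgfb had r = -0.19.

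**Figure D3:**
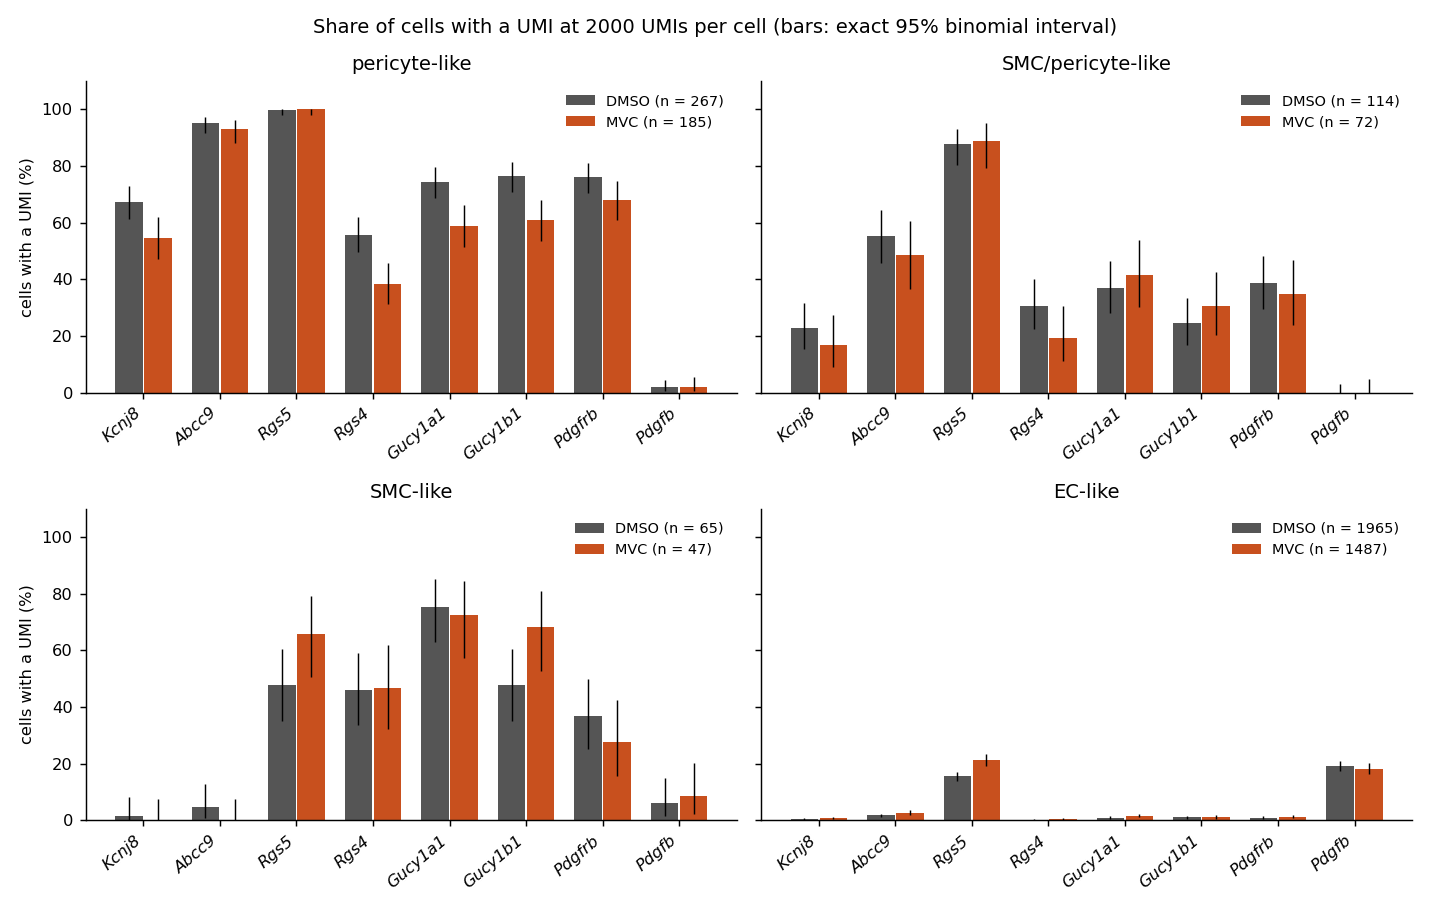
Share of cells (%) with at least 1 UMI of each gene after thinning to 2000 UMIs per cell, in DMSO (grey) and MVC (orange), with exact 95% binomial intervals as bars and the number of cells in each legend. In pericyte-like cells Abcc9 and Rgs5 were found in over 92% of cells of both libraries, while Kcnj8 and Abcc9 were found in at most 4.62% of SMC-like cells.

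Single pericyte-like cells held most of the set. Of the 6 channel, RGS and guanylyl cyclase genes, the median cell had 5 at 2000 UMIs in both libraries, and 85.8% of DMSO and 80.0% of MVC cells had at least 4. In SMC/pericyte-like cells 24.6% and 19.4% had at least 4, in SMC-like cells 13.8% and 17.0%, and in EC-like cells 0% and 0.336%. None of the pericyte-like cells lacked all 6, against 82.0% and 75.6% of EC-like cells.

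In MVC vs. DMSO pericyte-like cells, 7 of the 8 genes had a lower level and Pdgfb alone a higher one. The ratios were 0.733 (0.665 to 0.807) for Kcnj8, 0.806 (0.764 to 0.850) for Abcc9, 0.740 (0.720 to 0.761) for Rgs5, 0.652 (0.577 to 0.737) for Rgs4, 0.708 (0.644 to 0.778) for Gucy1a1, 0.689 (0.622 to 0.762) for Gucy1b1 and 0.703 (0.641 to 0.771) for Pdgfrb, each with an interval below 1. The share of all genes with an interval below 1 was not counted, so these intervals do not set the 7 genes apart. Pdgfb had 1.45 (0.95 to 2.22) from 45 and 50 UMIs, a log2 ratio of 0.54. Without called doublets 12 and 22 Pdgfb UMIs were left, with a log2 ratio of 1.15 (0.07 to 2.30), and without the cells that held both Pecam1 and Cdh5 only 5 and 3, with -0.16 (-2.84 to 2.21), so no direction is read from it. Of the 8 genes, 1 (Rgs4) was past 1.5-fold lower, against 5.78% of the 6904 genes with at least 50 UMIs, and 0 were past it upwards (9.97%). When called doublets (14.6% and 11.3% of the class) were left out, 5 of the 7 genes with enough UMIs were past 1.5-fold lower (6.77% of 5596 genes), with log2 ratios of -0.64 for Kcnj8, -0.68 for Rgs4, -0.64 for Gucy1a1, -0.68 for Gucy1b1 and -0.61 for Pdgfrb. The median log2 ratio of the 8 genes was -0.47 against 0.06 over all genes, of which 57.3% had a ratio over 1. Over all cells of each library, where class sizes also enter, 8 of 8 ratios were under 1 and 2 were past 1.5-fold lower, Kcnj8 (0.663, 0.607 to 0.723) and Rgs4 (0.595, 0.544 to 0.650), against 5.57% of 16792 genes lower, 7.63% higher and 13.2% in either direction. Of those 16792 genes, 58.9% had a ratio over 1.

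Other values of this class moved alongside. The median depth was 4172 vs. 2865 UMIs (DMSO vs. MVC), the median mitochondrial share 1.82% vs. 2.57%, and the summed pericyte markers 3630 vs. 3189 CPM. Summed endothelial markers were 1723 vs. 1914 CPM, with 8 of 8 detected in both, summed smooth muscle markers 1740 vs. 1935 CPM, erythroid markers 4303 vs. 39.1 CPM (the former with at least 2 UMIs in 0.340% of cells) and FAP markers 1097 vs. 514 CPM. Of 32 genes known to be induced by tissue dissociation, 6 were past 1.5-fold lower in MVC (5.78% of 6904 genes) and 0 higher (9.97%). Their median log2 ratio was -0.33, beside 0.06 over all genes. The part of these in the differences was not tested, and differences between mice or between library preparations cannot be told apart from those between MVC and DMSO. In cells with at least 2000 UMIs, averaged over cells, the log2 ratio was -0.55 for Kcnj8, -0.37 for Abcc9, -0.55 for Rgs5 and -0.78 for Rgs4. The same average over all cells of the class was -0.65, -0.30, -0.68 and -0.67. With the depth limit, Kcnj8 and Rgs5 thus lay closer to 0, and Abcc9 and Rgs4 further below it. The part of depth was not tested.

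**Figure D4:**
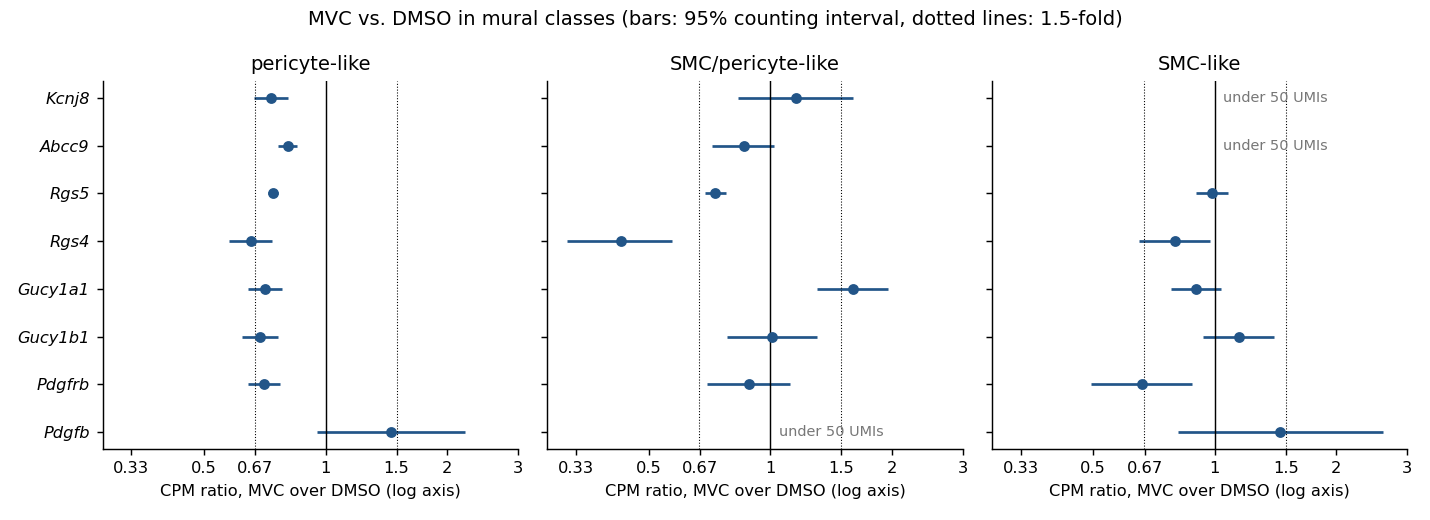
CPM ratio of MVC over DMSO (log axis) for each gene in the 3 mural classes, with 95% counting intervals as bars and dotted lines at 1.5-fold. In pericyte-like cells 7 genes lay between 0.652 and 0.806, while in SMC/pericyte-like cells Rgs4 (0.426) and Gucy1a1 (1.60) lay on opposite sides.

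The other mural classes had ratios on both sides of 1. In SMC/pericyte-like cells Rgs4 was lower (280 vs. 119 CPM, ratio 0.426, 0.314 to 0.570), Rgs5 was lower (0.732, 0.688 to 0.779) and Gucy1a1 was higher (241 vs. 386 CPM, 1.60, 1.31 to 1.96). Thus 1 of 7 genes was past 1.5-fold lower (9.75% of 4104 genes) and 1 higher (10.4%; 20.2% in either direction), and Kcnj8, Abcc9, Gucy1b1 and Pdgfrb had intervals that held 1. SMC-like cells had fewer than 50 cells in MVC, and their values were added after the data were seen. There Rgs5 had a ratio of 0.986 (0.899 to 1.08), Gucy1a1 0.897 (0.777 to 1.03) and Gucy1b1 1.15 (0.937 to 1.40), Rgs4 0.795 (0.648 to 0.974), and Pdgfrb 0.660 (0.493 to 0.878), the only 1 of 6 genes past 1.5-fold lower (10.1% of 3715 genes, with 15.9% higher). Pdgfb had 1.45 (0.810 to 2.61) from 24 and 28 UMIs. Summed smooth muscle markers were 3625 vs. 6958 CPM in the SMC/pericyte-like cells. Summed endothelial markers in SMC-like cells were 550 vs. 1807 CPM, 16.9% vs. 43.8% of these cells had both Pecam1 and Cdh5, and without them the log2 ratio of Rgs4 went from -0.33 to 0.14, that of Gucy1a1 from -0.16 to 0.19 and that of Pdgfrb from -0.60 to -0.29. In all, 4 of 7 ratios were under 1 in SMC/pericyte-like and 4 of 6 in SMC-like cells. Of all genes measured in these classes, 51.5% of 4104 and 55.0% of 3715 had a ratio over 1. The difference between the classes was not tested.

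In EC-like cells Pdgfb, the ligand, was at levels within counting error of each other in both libraries (ratio 1.04, 0.955 to 1.12), but the clusters behind them differed. The cluster led by Depp1 and Rassf9 had the highest Pdgfb level, 335 CPM (307 to 366) in DMSO and 279 CPM (256 to 304) in MVC, and made up 14.5% of the EC-like UMIs in DMSO and 23.5% in MVC. The cluster with Slc1a1 and Cldn5 among its leading genes, the largest in DMSO with 37.0% of UMIs and 25.7% in MVC, had 93.5 vs. 55.7 CPM. Within clusters the ratio was 0.833 (0.736 to 0.944) and 0.595 (0.479 to 0.736) for these, 0.877 (0.657 to 1.16) for the cluster led by Patl2 and Trim69, 1.21 (0.991 to 1.49) for that with the arterial genes Gja5 and Sema3g, and 1.21 (0.943 to 1.56) for that with the venular genes Selp and Ackr1. By their intervals, 2 clusters had lower MVC levels, and the cluster highest in Pdgfb held a larger share of UMIs in MVC. The part of cluster levels and cluster shares in the class level was not tested.

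**Figure D5:**
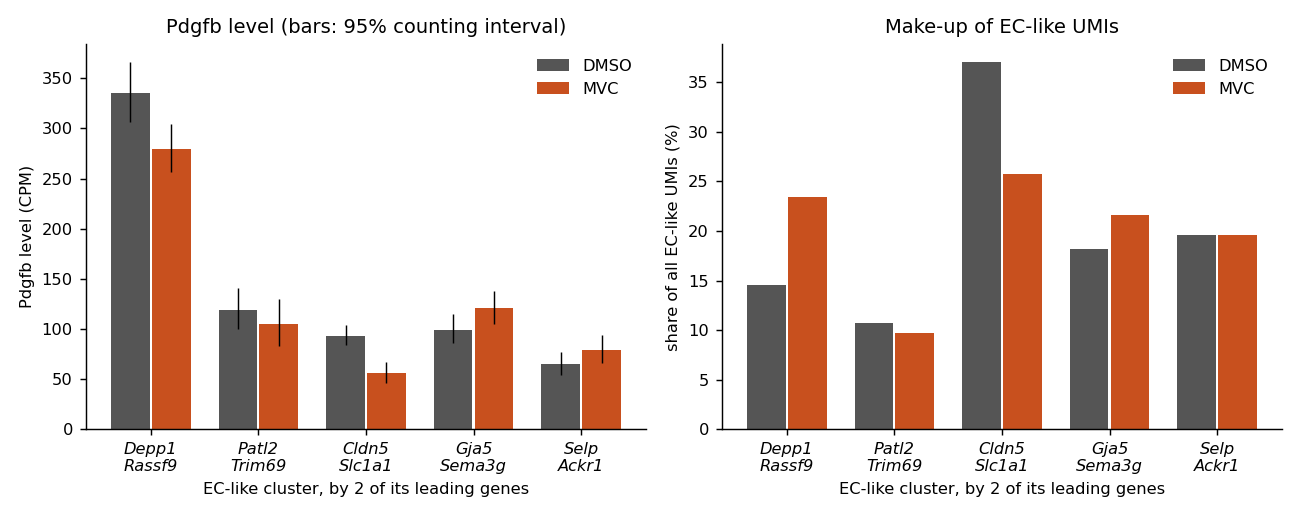
Left, Pdgfb level (CPM, with 95% counting intervals) in the 5 EC-like clusters of DMSO (grey) and MVC (orange). Right, the share of all EC-like UMIs (%) in each cluster: the cluster highest in Pdgfb held 14.5% in DMSO and 23.5% in MVC.

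All 7 genes with enough UMIs in EC-like cells had ratios over 1, as did 58.2% of all genes measured there. Kcnj8 was at 1.94 vs. 4.57 CPM (20 vs. 37 UMIs, ratio 2.35, 1.33 to 4.27) and Gucy1a1 at 5.83 vs. 10.7 CPM (1.84, 1.31 to 2.60), 2 of 7 past 1.5-fold higher (10% of 11559 genes) and 0 lower (3.84%). Summed markers in these cells were 43.4 vs. 73.2 CPM for pericytes, 108 vs. 191 CPM for FAPs and 15.3 vs. 72.3 CPM for tenocytes, and their part was not tested. Rgs5 was higher in the Gja5 cluster (246 vs. 488 CPM, ratio 1.98) and the Slc1a1 cluster (433 vs. 591 CPM, 1.37), and lower in the Patl2 cluster (363 vs. 296 CPM, 0.815).

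The wider pathways were described by 7 lists holding 81 genes, of which 80 were in the files. In pericyte-like cells 53 had enough UMIs, and 5 were past 1.5-fold higher and 5 lower in MVC, against 15.7% of all genes in either direction. Their median log2 ratio was 0.03, beside 0.06 over all genes and -0.47 for the 8 genes. None of the 9 measured genes of the NO-cGMP list was past 1.5-fold. Gucy1a2 was at a ratio of 1.13 (1.04 to 1.24), Prkg1 at 1.06 (1.02 to 1.10) and Pde5a at 0.991 (0.793 to 1.24), beside 0.708 for Gucy1a1 and 0.689 for Gucy1b1, and the difference between these genes was not tested. None of the 6 calcium entry and contraction genes and none of the 3 RGS genes measured was past 1.5-fold either.

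Of the 5 potassium channel genes measured in pericyte-like cells, Kcne4, a regulatory subunit of voltage-gated channels, was lower (244 vs. 104 CPM, ratio 0.428, 0.346 to 0.526) and Kcnq5 higher (72.9 vs. 165 CPM, 2.26, 1.78 to 2.88). Of the 17 genes of Gq and Gi signalling, the alpha-1A adrenergic receptor gene Adra1a (1.63) and Gnao1 (1.55) were higher, and the receptor genes Adra2b (0.552) and Ptgir (0.509), for catecholamines and prostacyclin, were lower. Ednra, the endothelin A receptor gene, was at 222 vs. 209 CPM. Of 4 PDGF ligand and receptor genes, Pdgfd was higher (38.4 vs. 113 CPM, 2.94, 2.15 to 4.07), and Pdgfra (0.314) and Pdgfrl (0.577) were lower, beside the FAP marker sum given above. Of 9 genes downstream of the PDGF receptors, the adaptor gene Nck2 (1.55) was higher.

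In SMC-like cells 42 list genes had enough UMIs, 7 past 1.5-fold higher and 8 lower (26% of all genes in either direction). Kcne4 was lower here too (0.467, 0.340 to 0.634), as were the potassium channel gene Kcnk3 (0.458), the calcium release channel gene Ryr2 (0.489), Ednra (338 vs. 179 CPM, 0.528, 0.409 to 0.678), Rgs2 (0.570) and the phosphatase gene Ptpn11 (0.621). Higher were Plcb1 (2.24) and Gnaq (2.20), which carry Gq signals, and the kinase gene Prkg2 (1.83). EC-like cells had Plcb1 at 812 and 980 CPM and Gnaq at 341 and 400 CPM. SMC-like cells had 163 and 365 CPM and 83.8 and 185 CPM, while Prkg2 in EC-like cells was at 0.583 and 1.36 CPM. The endothelial marker sum given above was also higher in MVC SMC-like cells (550 vs. 1807 CPM), and its part was not tested. In EC-like cells 48 list genes were measured, 7 higher and 2 lower (13.9% of all genes in either direction). Higher were Ano1 (7.94), Kcnma1 (5.71), Kcnq5 (3.54), Cacna1c (2.49), Gucy1a2 (2.03), Pde5a (1.57) and Pde3a (1.51), and lower were Ryr3 (0.458) and Kcnj2 (0.661). These EC-like levels were at most 17.9 CPM. The pericyte, FAP and tenocyte marker sums given above were also higher in the MVC EC-like cells, and Kcnma1 was highest in tenocyte-like cells (1697 and 1683 CPM). Their part was not tested.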

How the data were processed

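Live cells of limb muscle of aged mice were profiled by droplet single-cell RNA-seq in 1 DMSO and 1 MVC library. The authors deposited a filtered matrix of raw UMI counts per gene and cell for each library, made per the submitters' processing notes with Cell Ranger 7.0.0 on mm10, and Seurat 5.0.1 is named there too. Whether intronic reads were counted is not given in the sources used here. Groups were taken from the labels, and no column of per-sample values was left unused. The 8 genes and the gene lists were chosen with earlier results of these data known.

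Barcodes with 500 or more detected genes and a mitochondrial share of up to 10% were kept (5437 of 5812 barcodes in DMSO, 5454 of 6047 in MVC). Counts per cell were scaled to 10000, and 2000 variable genes without the 8 genes and the lists gave 30 principal components, 20 neighbours and 26 Leiden clusters (resolution 1, leidenalg 0.10.2). Clusters were named from markers fixed without these genes. The cell type names were built anew here, which may by itself make values depart from those of the study. Doublets were scored against simulated pairs of cells (236 in DMSO and 238 in MVC called) and kept, with their removal as an alternative. Free RNA was not corrected for.

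A level is the sum of a gene's UMIs over the cells of 1 class in 1 library, per 1000000 UMIs of those cells (CPM). Intervals at 95% are exact Poisson for levels, exact Clopper-Pearson for shares and exact conditional binomial for ratios, and cover counting error only. With 1 library per group no test was made. A gene was measured with at least 50 UMIs over both libraries and called past 1.5-fold, or between classes past 2-fold in both libraries. Classes needed 50 cells in each library, and a minimum of 40, which adds SMC-like cells, was set after the data were seen. Shares were computed after thinning each cell to 2000 UMIs. A count of 0 was given an upper limit of 3 UMIs.

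Named besides the 8 genes were list genes past 1.5-fold (at most 10 per class, by size), fixed paralogs and pathway partners, and the 3 genes with the highest Pearson r over log2(CPM + 10). A list gene that this rule names is not reported here. Lists covered 7 pathways, dissociation-induced genes and cell type markers. The MVC vs. DMSO ratio call and its interval were tested on Poisson counts simulated for pericyte-like cells. Such counts hold counting error only, so differences between cells, mice or libraries were not covered. The other steps were not tested in this way. Positions came from GENCODE M21 and promoters from RefSeq. Alternatives covered doublets, cell filters, clustering, scaling, averaging and UMI minimums. Python 3.11.15, NumPy 2.4.6, SciPy 1.17.1, pandas 2.3.3 and scikit-learn 1.9.0 were used.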

Additional observations from a re-analysis of the deposited data

Results flagged for a closer look

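The following MVC over DMSO ratios lay on opposite sides of 1 in different cell classes, with intervals that did not hold 1. No difference between classes was tested, and with 1 library per group it could not be. Kcnj8 was at 2.35 in EC-like and 0.733 in pericyte-like cells. Abcc9 was at 1.43 in EC-like, 2.77 in FAP-like (38 vs. 113 UMIs) and 0.806 in pericyte-like cells. Gucy1a1 was at 1.84 in EC-like, 1.60 in SMC/pericyte-like and 0.708 in pericyte-like cells, and Gucy1b1 at 1.70 in FAP-like (33 vs. 60 UMIs) and 0.689 in pericyte-like cells.

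Rgs5 was at 1.25 in EC-like, 0.740 in pericyte-like, 0.732 in SMC/pericyte-like and 0.642 in tenocyte-like cells. Its ratios of 7.92 in macrophage-like, 0.186 in B cell-like and 3.91 in perineurial-like cells rested on few cells: 3 MVC macrophage-like cells held 90.1% of 152 UMIs, 3 DMSO B cell-like cells held 90.3% of 93 UMIs, and 1 MVC perineurial-like cell held 79.6% of 49 UMIs. The tenocyte-like ratio also rested on few cells. There 3 of the 19 DMSO cells with an Rgs5 UMI held 68.1% of 141 UMIs, and 3 of 48 in MVC held 43.2% of 95.

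Pdgfb was at 3.31 in FAP-like (11 vs. 39 UMIs), 0.646 in macrophage-like and 0.173 in lymphatic EC-like cells, where 1 DMSO cell held 72 of 86 UMIs.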

How the results depend on the processing

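No paired analysis was possible because each group had 1 library. In pericyte-like cells the ratio of each of the 7 lower genes stayed under 1 in 9 of 9 alternatives, with Kcnj8 between 0.637 and 0.743, Abcc9 between 0.770 and 0.831, Rgs5 between 0.624 and 0.758, Rgs4 between 0.582 and 0.662, Gucy1a1 between 0.613 and 0.720, Gucy1b1 between 0.617 and 0.688, and Pdgfrb between 0.654 and 0.720. Rgs4 was past 1.5-fold in all 9. Pdgfb ranged from 0.834 to 2.22 and was under 1 in 2, and its log2 ratio in EC-like cells ranged from -0.02 to 0.07.

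Some log2 ratios in pericyte-like cells moved beyond their counting interval. Averaging each cell's own CPM gave -0.65 for Kcnj8, -0.68 for Rgs5 and -0.69 for Gucy1a1, and scaling by the median ratio gave -0.50 for Rgs5. Removing doublets gave -0.64 for Kcnj8, -0.52 for Rgs5 and -0.64 for Gucy1a1, with 5 of the 7 genes measured past 1.5-fold, all lower (6.77% of 5596 genes). Removing cells with Pecam1 and Cdh5 gave -0.51 for Rgs5 and -0.16 for Pdgfb, with 2 of 7 past 1.5-fold, Rgs4 and Gucy1a1, both lower (7.9% of 5218 genes). The stricter cell filter gave 2 of 8, Rgs4 lower (6.09% of 6646 genes) and Pdgfb higher (9.63%). In alternatives added after the data were seen, removing both these cells and doublets gave -0.61 for Rgs5, -0.71 for Gucy1a1, -0.70 for Gucy1b1 and -0.26 for Pdgfb, and averaging over cells with at least 2000 UMIs gave -0.55, -0.64 and -0.68 for Rgs5, Gucy1a1 and Gucy1b1. In SMC-like cells Rgs5 went from -0.02 to -0.49 with each cell's own CPM, -0.31 without doublets, -0.21 with the stricter filter and -0.40 in clusters drawn with the 8 genes, which turned Gucy1a1 from -0.16 to 0.22. Without cells holding Pecam1 and Cdh5, Rgs4 was at 0.14 and Gucy1a1 at 0.19 there. Each cell's own CPM gave -0.35 for Rgs5 in SMC/pericyte-like, 0.23 for Rgs5 in EC-like and -1.51 for Pdgfb in lymphatic EC-like cells. The cause of these shifts was not tested.

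Of all genes in pericyte-like cells, 1087 were past 1.5-fold, 242 past 2-fold (0 of the 8), 2275 with a minimum of 20 UMIs and 533 with 100, and of the pathway genes 10, and 19 with a minimum of 20 UMIs. Without doublets 14 of 16 levels of the 8 genes in pericyte-like cells were higher. All 16 shares were lower when thinned to 1000 UMIs. With the 8 genes and the lists among the variable genes, SMC/pericyte-like cells joined the SMC-like cluster (180 and 127 cells) and gave no value of their own.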
